A study of Homo sapiens with 8 samples.

Results

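The nuclear transcriptome of mitochondria-depleted ρ0 cells was compared with that of their parental MDA-MB-231 cells in full medium, without arginine starvation. MDA-MB-231 is an established human triple negative breast cancer line with a mesenchymal shape, and the ρ0 cells are a derivative that was depleted of mitochondrial DNA with ethidium bromide. The comparison rests on 4 of the 8 RNA-seq libraries of the series, 2 of untreated parental cells and 2 of untreated ρ0 cells, all of clone 27. The other 4 libraries were 2 of each line exposed to arginine deiminase at 0.3 µg/mL for 48 h. They were used to ask whether the line difference had the same direction there, and in an alternative fit of all 8 libraries. The labels give high glucose DMEM with 10% serum and antibiotics for all samples. The study's methods add that the ρ0 line came from another laboratory and was kept in medium with added pyruvate, uridine and ethidium bromide, additions they do not list for parental cells. The loss of mitochondrial DNA, the history of 1 clone and the difference in medium cannot be told apart in this comparison. The labels do not say that the 2 libraries of a line came from separate cultures, so p-values measure only the spread between these samples, which may be technical.

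As background, mitochondrial DNA encodes a small set of core subunits of the respiratory chain and the ATP synthase, together with the RNAs of the mitochondrial ribosome. All other respiratory subunits, and the proteins that copy, transcribe and translate mitochondrial DNA, are nuclear genes and are imported. Cells without mitochondrial DNA cannot respire, live on glycolysis, and depend on uridine because dihydroorotate dehydrogenase, which makes pyrimidines, feeds electrons into the respiratory chain. Such cells are also known for altered stress, interferon and nutrient signalling from mitochondria to the nucleus.

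The 4 libraries held between 26672463 and 30986041 counts over 23393 gene symbols. Of these genes, 19424 had a count in at least 1 of the 4 libraries and 14952 passed the expression filter and were tested. None of the 13 protein genes of the mitochondrial genome was found among the deposited symbols, so the depletion itself was not checked here. The parental pair was tight, with a biological coefficient of variation of 5.18%, whereas the ρ0 pair had one of 24.9%. Among the 10139 tested genes with a mean of at least 10 CPM (counts scaled to the size of the library), 372 were more than 1 log2 unit apart between the ρ0 libraries, 255 of them higher in ρ0 replicate 1 and 117 higher in ρ0 replicate 2. Between the parental libraries 2 such genes were found. List medians whose sign or size depended on which ρ0 library was used are therefore also given without each of them.

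The genes that separated the ρ0 libraries most are named here as a description. Among those higher in ρ0 replicate 1 were MYH15, IFIT1, CX3CL1, TRANK1 and RSAD2. IFIT1 and RSAD2 are antiviral genes induced by interferon, and CX3CL1 is a membrane chemokine. IFIT1 stood at 11.5 and 12.97 CPM in parental cells and at 288 and 34.7 CPM in ρ0 cells. Higher in ρ0 replicate 2 were FAM69B, IL24, CYP1A1, ADAMTS1, EGR1 and SEL1L3. EGR1, an immediate early transcription factor, stood at 11.8 and 12.4 CPM in parental cells and at 6.70 and 27.4 CPM in ρ0 cells, so the parental values lay between the ρ0 values. Of the 42 tested interferon-stimulated genes, 26 were more than 1 log2 unit higher in ρ0 replicate 1 than in replicate 2 and none was higher in replicate 2 by that margin.

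**Figure D1:**
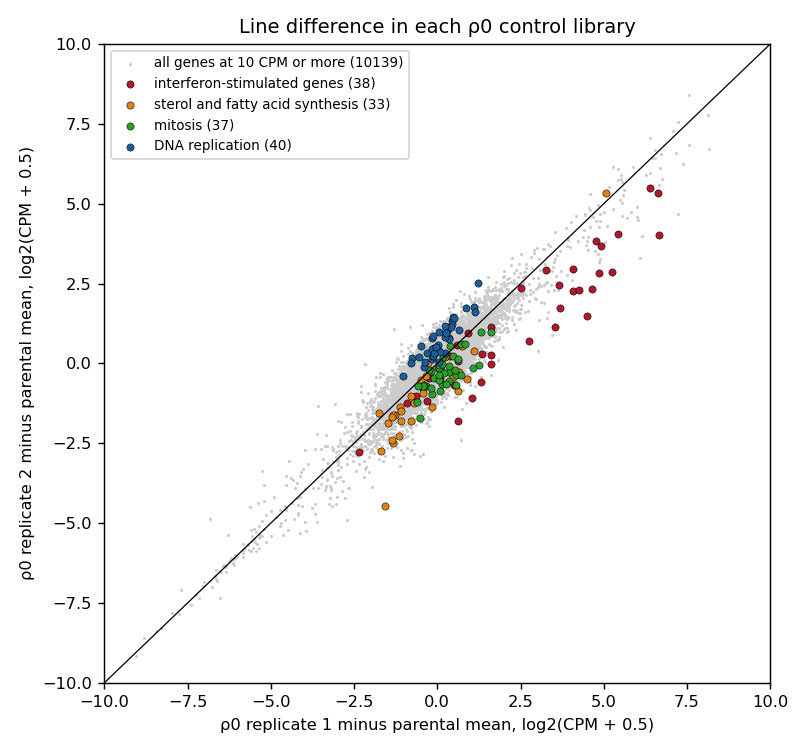
Each point is a gene with a mean of at least 10 CPM, at its difference from the parental mean in ρ0 replicate 1 (x axis) and in ρ0 replicate 2 (y axis), on the log2(CPM + 0.5) scale, with 4 gene lists in colour. Interferon-stimulated genes and mitosis genes lie mostly below the diagonal (higher in ρ0 replicate 1), and DNA replication genes mostly above it.

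The identity of the line was read from its markers before any comparison. The mesenchymal genes that mark MDA-MB-231 were high in both lines, with vimentin (VIM) at 1767 and 1858 CPM in parental and 3058 and 3798 CPM in ρ0 libraries, and moesin (MSN) at 1033 and 1003 against 1045 and 971 CPM. ESR1, the estrogen receptor, had between 2 and 6 counts per library and PGR, the progesterone receptor, at most 1. CDKN2B and MTAP, which are deleted in this line together with CDKN2A, had 0 counts in all 4 libraries, and CDKN2A had between 0 and 3 counts. These absences were shared by the ρ0 libraries. No genotype was read here, so the descent of the ρ0 clone from the parental line rests on the labels and was not tested. Markers that should be near 0 in MDA-MB-231 did not all behave alike, since CDH1 and EPCAM were near 0 in parental cells only and ERBB3 was present in both lines. Of the melanocyte, blood, endothelial and neural lists, 18 members passed the expression filter. CD3E and NEFL had 0 counts throughout.

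At the study's thresholds (adjusted p under 0.05, fold change beyond 1 on the log2 scale either way), the lines differed at 4478 of 14952 tested genes (29.9%). These differentially expressed genes (DEGs) comprised 1966 genes that were higher in ρ0 cells (13.1%) and 2512 that were lower (16.8%). At any fold change, 3465 genes were higher (23.2%) and 3751 lower (25.1%) at an adjusted p under 0.05 in edgeR's quasi-likelihood test. The parental and ρ0 values did not overlap at 77.5% of tested genes, 37.5% higher and 40% lower in ρ0 cells, so a lack of overlap alone separated little here. In bulk RNA, a gene counted in fewer cells and a gene with less RNA in every cell cannot be told apart. Across the tested genes the log2 fold change had a median of -0.01, and the median of its size was 0.615. Scaling by total counts in place of TMM lowered the median to -0.11 and made 61.6% of DEGs lower in ρ0 cells, against 56.1% in the main analysis. Pearson's r of log2 CPM across genes was 0.998 within the parental pair, 0.983 within the ρ0 pair and between 0.877 and 0.878 for pairs of libraries from different lines.

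**Figure D2:**
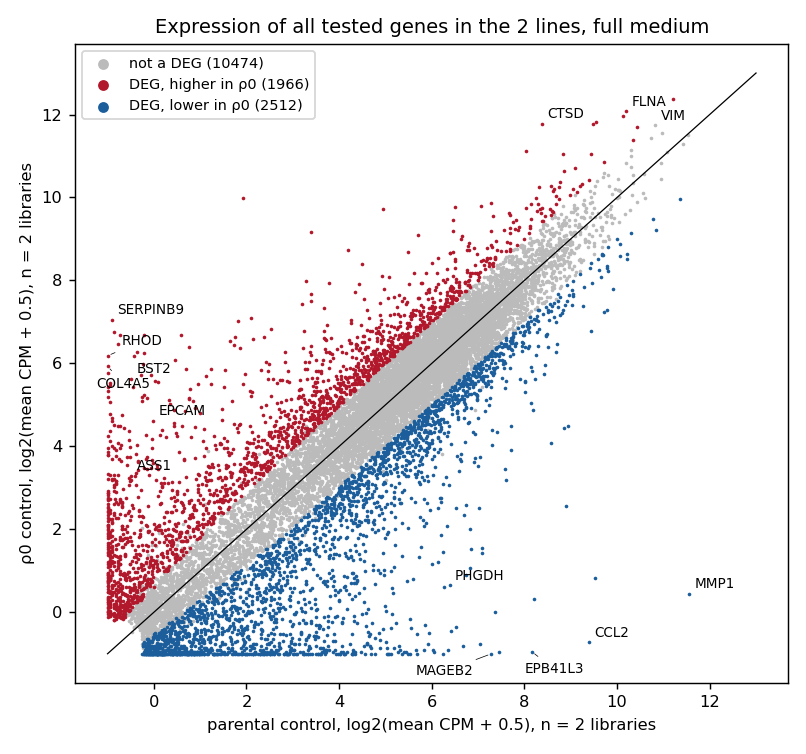
Each of the 14952 tested genes is drawn at its mean expression in the 2 parental control libraries (x axis) and the 2 ρ0 control libraries (y axis), as log2(mean CPM + 0.5), with DEGs in colour. The 1966 red and 2512 blue genes include a band along each axis, made of genes that were near 0 in one line.

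Many DEGs were nearly silent in one of the lines. A log2 fold change above 4 was found for 352 genes and one below -4 for 637. With 3 counts or fewer in both parental libraries, 26 genes reached at least 10 CPM in both ρ0 libraries, and 75 genes showed the reverse. Fitted fold changes of such genes depend on the prior count, so their counts and a bound or counting interval are given instead.

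Of the DEGs that averaged 10 CPM or more, those with the largest rises were RHOD, COL4A5, TSPYL5, LRRC61, RARRES2, PLBD1, SERPINB9, NLRP2, CTSF and TNFSF10. RHOD, a small GTPase, had 0 and 0 counts in parental cells and 1848 and 2305 counts in ρ0 cells, at least 1436-fold higher against a floor of 3 counts over the parental pair. COL4A5, a chain of basement membrane collagen IV, had 0 and 0 against 2310 and 1113 counts, at least 1204-fold higher. RARRES2, which encodes the chemoattractant chemerin, had 0 and 0 against 1485 and 791 counts. All 3 were at 0 in parental cells and had at least 791 counts in each ρ0 library. SERPINB9, an inhibitor of granzyme B, had 1 and 1 against 4094 and 3485 counts, a ratio of 3942 with a 95% counting interval from 1091 to 32560. TNFSF10, the death ligand TRAIL, had 0 and 3 against 4352 and 1707 counts, a ratio of 2101 (719 to 10190). TNFSF10 was the least even of the 10 between the ρ0 libraries, at 158 and 57.4 CPM, and it remained far above the parental level in either one. The other genes named had between 0 and 1 counts in each parental library and between 916 and 1972 in each ρ0 library.

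The largest falls were those of MAGEB2, ESM1, EPB41L3, CD33, NFATC4, PDPN, GPC4, IL13RA2, VAT1L and SLITRK4. MAGEB2, a cancer-testis antigen, had 4928 and 4356 counts in parental cells and 0 and 0 in ρ0 cells, at least 2977-fold lower. ESM1, the secreted proteoglycan endocan, had 2466 and 2056 against 0 and 0 counts, at least 1447-fold lower. EPB41L3, a membrane skeleton protein of the band 4.1 family, had 9303 and 7753 against 1 and 0 counts, a ratio of 16390 (2942 to 647600). These genes were therefore abundant in the parental line and essentially not counted in ρ0 cells. IL13RA2, a decoy receptor for interleukin 13, had 5538 and 4945 against 0 and 1 counts, and the membrane glycoprotein podoplanin (PDPN) 1420 and 1243 against 0 and 0. CD33, a sialic acid-binding receptor best known from myeloid cells, had 1594 and 1418 against 0 and 0 counts.

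**Figure D3:**
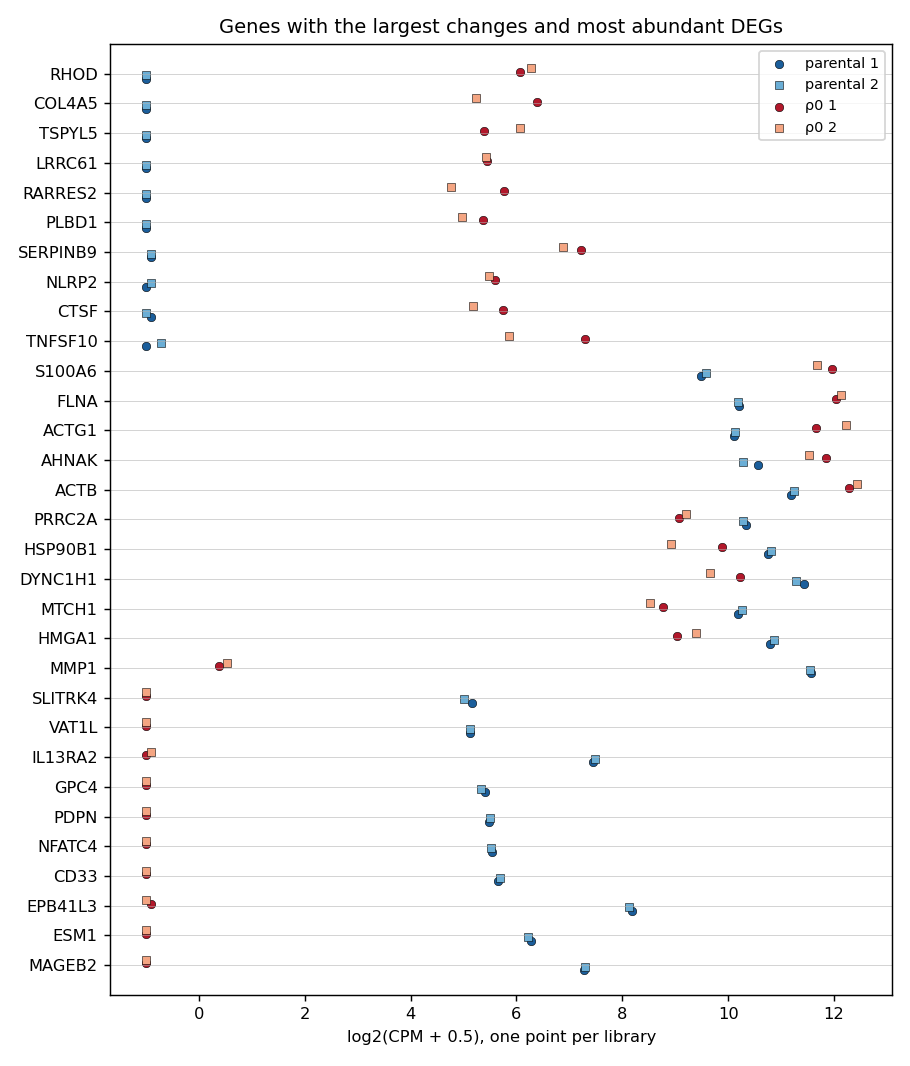
Each row is a gene of the 10 largest rises, the 10 largest falls or the most abundant DEGs in each direction, and each point is 1 library at its log2(CPM + 0.5), where -1 is a count of 0. Parental (blue) and ρ0 (red) points do not overlap in any row, which follows from the choice of rows. No DEG had overlapping groups. The 2 ρ0 points lie farthest apart for COL4A5 and TNFSF10.

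The most abundant DEGs by mean CPM, a scale that is not corrected for transcript length, moved less. Among those higher in ρ0 cells were the actins ACTB and ACTG1, FLNA, which crosslinks actin filaments, the scaffold AHNAK and the calcium-binding protein S100A6. FLNA went from 1174 and 1170 CPM to 4213 and 4477 CPM, a log2 fold change of 1.89 (SE 0.15). S100A6 went from 716 and 767 CPM to 3966 and 3287 CPM, a log2 fold change of 2.29 (SE 0.17). ACTB had a log2 fold change of 1.15 and ACTG1 of 1.84, and their sequences are so alike that the counting may have divided reads between them. Lower in ρ0 cells were MMP1, DYNC1H1, HSP90B1, HMGA1, PRRC2A and MTCH1. MMP1, an interstitial collagenase, went from 3024 and 2993 CPM to 0.796 and 0.941 CPM, a log2 fold change of -11.75 (SE 0.23). HMGA1, an architectural chromatin protein, went from 1776 and 1864 CPM to 522 and 668 CPM. HSP90B1, the chaperone GRP94 of the endoplasmic reticulum, was at 1732 and 1786 against 939 and 482 CPM, with a log2 fold change of -1.31 that was -1.87 without ρ0 replicate 1 and -0.89 without ρ0 replicate 2.

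Gene lists were then described by how many of their tested members passed an adjusted p under 0.05 at any fold change and by their median log2 fold change. The background for these counts was 23.2% higher and 25.1% lower, with a median of -0.01.

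**Figure D4:**
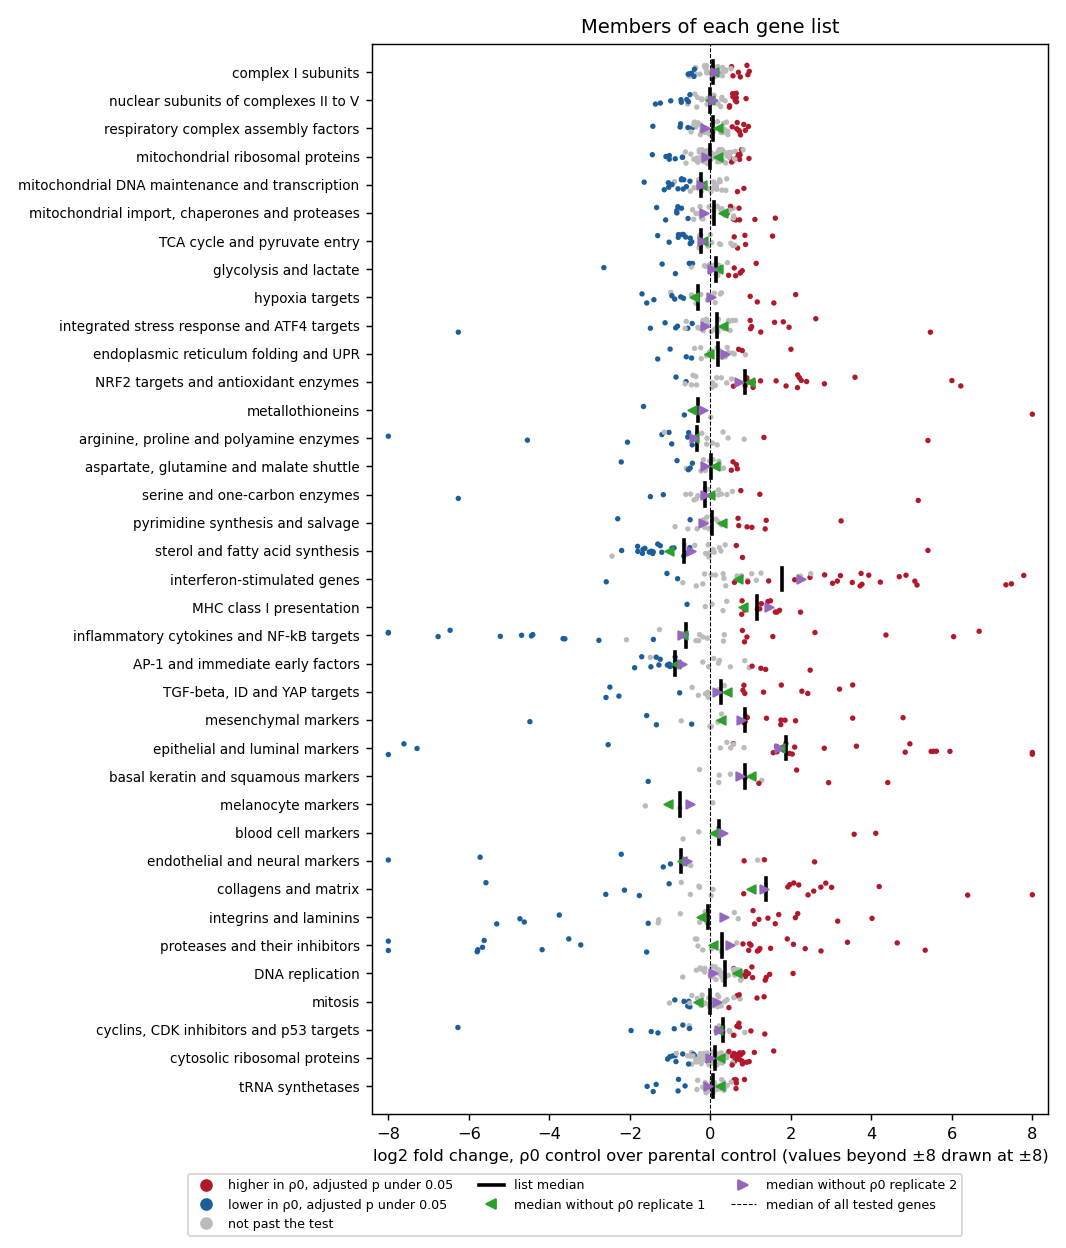
Each point is a tested member of a gene list at its log2 fold change, ρ0 control over parental control (x axis, values beyond 8 drawn at 8), coloured by direction where the adjusted p was under 0.05. Black bars are list medians, triangles the medians without ρ0 replicate 1 (green) or replicate 2 (purple), which lie far apart for interferon-stimulated genes (0.69 and 2.25) and close to 0 for the respiratory chain.

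Nuclear genes of the respiratory chain differed little between the lines. Of 37 complex I subunits, 7 were higher and 5 lower, none was a DEG, and the median was 0.07. The extremes were NDUFB11 at 51.0 and 52.9 against 113 and 90.4 CPM (log2 fold change 0.97), and NDUFB8 at 18.5 and 19.7 against 12.96 and 13.1 CPM (-0.55). Of 39 nuclear subunits of complexes II to V, 11 were higher and 8 lower, with a median of -0.00235. The 2 DEGs among them were both subunits of complex III and both lower, namely CYC1, the cytochrome c1 heme protein, and UQCRH, the hinge protein. CYC1 went from 398 and 445 CPM to 134 and 193 CPM (log2 fold change -1.36, SE 0.21), and UQCRH from 149 and 166 to 72.2 and 61.2 CPM (-1.24, SE 0.15). SDHD, a membrane anchor of complex II, was the highest at 51.9 and 52.0 against 96.2 and 96.1 CPM (0.89). Of 43 assembly factors, 9 were higher and 5 lower, with 1 DEG, COA1, at 219 and 207 against 83.2 and 75.2 CPM. The signs of these medians changed with the scaling or with the library left out, and their sizes stayed at or under 0.196.

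Among the genes that maintain and express mitochondrial DNA, the share that was lower in ρ0 cells was near that of all genes. Of 39 tested genes, 12 were lower (30.8%, against 25.1% of all tested genes), 2 were higher (5.13%, against 23.2%) and 4 were DEGs (10.3%, against 29.9%), with a median of -0.24 that was -0.21 and -0.23 without either ρ0 library. The 4 DEGs were all lower and are enzymes that act on mitochondrial DNA or RNA. TOP1MT, the mitochondrial topoisomerase I, went from 102 and 104 CPM to 33.4 and 32.6 CPM (log2 fold change -1.64, SE 0.13). POLG, the catalytic subunit of the mitochondrial DNA polymerase, went from 190 and 198 to 87.3 and 88.2 CPM (-1.15, SE 0.12). POLRMT, the mitochondrial RNA polymerase, had a log2 fold change of -1.04 and TFB1M, which methylates mitochondrial ribosomal RNA, of -1.03. TFAM, which packages and transcribes mitochondrial DNA, went from 182 and 170 CPM to 82.7 and 119 CPM, a log2 fold change of -0.80 (SE 0.20, adjusted p = 0.0218 in edgeR's quasi-likelihood test) that was -0.57 and -1.07 without ρ0 replicate 1 and 2. The 2 genes that were higher were TEFM, a transcription elongation factor, at 0.83, and SSBP1, the mitochondrial single-stranded DNA-binding protein, at 0.67.

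Other mitochondrial groups showed no common direction. Of 74 tested mitochondrial ribosomal proteins, 10 were higher and 7 lower, with a median of -0.00335 that was 0.19 without ρ0 replicate 1 and -0.10 without ρ0 replicate 2, and the 4 DEGs were lower, led by MRPL42 at 163 and 157 against 62.5 and 55.5 CPM. Of 37 genes of protein import, chaperones and proteases, 8 were higher and 7 lower, and the median of 0.09 was 0.33 without ρ0 replicate 1 and -0.17 without ρ0 replicate 2. TIMM8B, a small chaperone of the intermembrane space, was highest at 15.8 and 16.2 against 45.0 and 52.7 CPM (log2 fold change 1.61), and the stress-activated protease OMA1 was lowest at 22.5 and 24.6 against 9.95 and 8.70 CPM (-1.33). Of 37 tRNA synthetases, 5 were higher and 6 lower, and the median of 0.07 was 0.23 without ρ0 replicate 1 and -0.06 without ρ0 replicate 2. The DEGs, all lower, were NARS2 and VARS2 of mitochondria and cytosolic VARS.

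Enzymes of the TCA cycle and of pyruvate entry were lower more often than higher, 11 against 5 of 28, with a median of -0.24. The shares were 39.3% lower and 17.9% higher, against 25.1% and 23.2% of all tested genes. DEGs made up 10.7% of the list, fewer than the 29.9% of all tested genes. IDH2, the mitochondrial NADP-dependent isocitrate dehydrogenase, went from 39.5 and 43.6 CPM to 15.8 and 17.7 CPM (log2 fold change -1.31, SE 0.16), and citrate synthase (CS) from 186 and 187 to 109 and 125 CPM (-0.67). MPC2, a subunit of the mitochondrial pyruvate carrier, moved the other way, from 25.6 and 28.2 to 92.0 and 64.9 CPM (1.54, SE 0.21), whereas its partner MPC1 had a log2 fold change of -0.49. PDK1, which inhibits pyruvate dehydrogenase, was at 0.87.

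In glycolysis and lactate handling, 7 of 24 tested genes were higher and 5 lower, and the median of 0.14 was 0.195 without ρ0 replicate 1 and 0.05 without ρ0 replicate 2. The abundant enzymes GAPDH (log2 fold change 0.59) and PGK1 (0.74) and the glucose transporter SLC2A1 (0.79) were higher, and LDHA had a log2 fold change of 0.43 that did not pass the test (adjusted p = 0.0547 in edgeR's quasi-likelihood test). GAPDH stood at 1962 and 2031 against 2882 and 3144 CPM. HK1, a hexokinase bound to mitochondria, was lower at 480 and 493 against 258 and 276 CPM, and so was PFKFB3, which makes the activator of phosphofructokinase. ALDOC had the lowest value, from 29.7 and 27.9 CPM to 4.89 and 4.30 CPM (-2.65, SE 0.18). Of 20 hypoxia targets, 4 were higher and 7 lower, with EGLN3, an oxygen-sensing hydroxylase, at 2.12 and CA12, a carbonic anhydrase, at -1.70. The median of the hypoxia list was -0.30, and it was -0.40 without ρ0 replicate 1 and 0.00446 without ρ0 replicate 2.

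Amino acid enzymes held some of the largest metabolic differences. ASS1, which makes argininosuccinate and whose lack makes cells depend on external arginine, had 10 and 3 counts in parental cells and 183 and 358 in ρ0 cells, 0.312 and 0.108 against 6.62 and 12.03 CPM. Its log2 fold change was 5.41 (SE 0.55, adjusted p = 0.00133 in edgeR's quasi-likelihood test). The ρ0 values were far above the parental ones in both libraries. ASL, the next enzyme of the pathway, had a log2 fold change of 0.05. Of 21 genes of arginine, proline and polyamine metabolism, 2 were higher, ASS1 and NOS3, and 9 were lower. The shares were 9.52% higher and 42.9% lower, against 23.2% and 25.1% of all tested genes. The nitric oxide synthase NOS1 had 121 and 99 counts against 0 and 0, at least 70.4-fold lower, NOS2 had 16 and 14 against 1 and 0, and ARG2, the mitochondrial arginase, went from 57.1 and 60.3 CPM to 17.2 and 11.0 CPM (-2.06, SE 0.25).

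PHGDH, the first enzyme of serine synthesis, went from 81.6 and 84.5 CPM to 0.977 and 1.18 CPM, a log2 fold change of -6.26 (SE 0.19). The later enzymes PSAT1 and PSPH did not pass the test, with log2 fold changes of 0.55 and 0.20. SHMT2, the mitochondrial serine hydroxymethyltransferase, was lower at -1.49 and its cytosolic counterpart SHMT1 higher at 0.76. ALDH1L1, a cytosolic folate enzyme, had 1 and 3 counts against 58 and 90, a ratio of 38.5 (14.7 to 143). Over the 19 tested serine and one-carbon enzymes, 3 were higher and 3 lower, and the median of -0.13 was 0.00347 without ρ0 replicate 1 and -0.14 without ρ0 replicate 2. Among 20 genes of aspartate, glutamine and the malate-aspartate shuttle, 4 were higher and 5 lower, and the median of 0.02 was 0.11 without ρ0 replicate 1 and -0.14 without ρ0 replicate 2. SLC1A3, an aspartate and glutamate transporter of the plasma membrane, was the only DEG of that list, at 51.0 and 53.5 against 13.3 and 9.21 CPM (log2 fold change -2.21, SE 0.22). ASNS, the asparagine synthetase, was at 81.1 and 84.4 against 36.3 and 72.9 CPM and did not pass the test (-0.60, SE 0.32, adjusted p = 0.178 in edgeR's quasi-likelihood test).

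Pyrimidine genes were split, with 7 of 20 higher and 2 lower, and the median of 0.05 was 0.30 without ρ0 replicate 1 and -0.19 without ρ0 replicate 2. DHODH, the enzyme that couples pyrimidine synthesis to respiration, was at 24.5 and 25.2 against 8.61 and 18.4 CPM, a log2 fold change of -0.88 that did not pass the test (SE 0.36, adjusted p = 0.0931 in edgeR's quasi-likelihood test). The salvage and breakdown enzymes TYMP, CDA and UPP1 were higher, with TYMP, the thymidine phosphorylase, at 0.780 and 1.92 against 13.6 and 11.8 CPM (3.25, SE 0.43). CTPS2, a CTP synthase, was lower at 69.6 and 69.7 against 13.7 and 14.6 CPM (-2.30, SE 0.14). Its paralog CTPS1 was at 0.20.

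Targets of the integrated stress response did not move as a block. Of 36 tested genes, 9 were higher and 7 lower, and the median of 0.16 was 0.31 without ρ0 replicate 1 and -0.12 without ρ0 replicate 2. ATF4, the transcription factor of this response, was at 165 and 169 against 150 and 210 CPM (log2 fold change 0.10). NUPR1, a stress-induced chromatin protein, had 3 and 3 counts against 112 and 155, a ratio of 46.3 (21.0 to 127), and the secreted stress hormone GDF15 went from 8.74 and 9.90 CPM to 58.3 and 56.3 CPM (2.62, SE 0.16). The amino acid exchanger subunits SLC7A5 and SLC3A2 were higher at 1.96 and 1.60. PHGDH and SHMT2, which the list shares with serine synthesis, were its lowest members. In the unfolded protein response list, 3 of 26 genes were higher and 4 lower, and the median of 0.19 was -0.04 without ρ0 replicate 1 and 0.35 without ρ0 replicate 2. XBP1 had a log2 fold change of 0.25, and HSPA5, the chaperone BiP, stood at 717 and 740 against 1358 and 841 CPM and did not pass the test.

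Many antioxidant genes were higher in ρ0 cells. Of 33 tested NRF2 targets and antioxidant enzymes, 19 were higher (57.6%, against 23.2% of all tested genes) and 2 lower, 14 of the former were DEGs, and the median was 0.86 (0.98 and 0.71 without either ρ0 library). NFE2L2, which encodes NRF2 itself, went from 103 and 108 CPM to 220 and 280 CPM (log2 fold change 1.25, SE 0.16). NQO1, a quinone reductase and a classical NRF2 target, went from 30.8 and 31.2 to 172 and 270 CPM (2.83, SE 0.25). The aldo-keto reductases AKR1C1, AKR1C2 and AKR1B10 had the largest values, AKR1C1 at 0.219 and 0.181 against 11.5 and 19.1 CPM. AKR1C1 and AKR1C2 are near-identical paralogs, so their separate counts are uncertain. GCLM, the modifier subunit of glutathione synthesis, was at 30.5 and 28.3 against 130 and 134 CPM (2.17), and heme oxygenase HMOX1 at 2.17. The ferritin chains FTL and FTH1 were also higher, FTL at 456 and 460 against 1546 and 2693 CPM, and the log2 fold change of FTH1, 1.63, was 0.96 without ρ0 replicate 2. SLC7A11, the cystine transporter, did not pass the test at -0.63, and TXNIP was lower at -0.85. Of the 8 metallothioneins 4 were tested, and they differed in direction, MT1F with 0 and 0 counts against 97 and 54 and MT1X with 41.3 and 41.0 against 15.5 and 10.6 CPM. The metallothioneins share much of their sequence, and reads may have been divided among them.

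Genes of sterol and fatty acid synthesis were lower more often than higher in ρ0 cells. Of 33 tested genes, 18 were lower (54.5%, against 25.1% of all tested genes) and 3 higher, 13 were DEGs in the lower direction, and the median was -0.66. It was -1.02 without ρ0 replicate 1 and -0.47 without ρ0 replicate 2, and 9 members were more than 1 log2 unit lower in replicate 2 than in replicate 1. SREBF2, the transcription factor that drives sterol synthesis, went from 351 and 354 CPM to 136 and 65.8 CPM (log2 fold change -1.81, SE 0.34). HMGCS1, which makes the precursor of mevalonate, went from 192 and 185 to 73.6 and 58.1 CPM (-1.52, SE 0.16), and fatty acid synthase (FASN) from 1049 and 1078 to 423 and 349 CPM (-1.46, SE 0.16). As for every DEG, the values of the lines did not overlap for these 3 genes. HSD17B7 had the lowest value past the test at -2.20. EBP, a sterol isomerase, stood apart from the list at 3.28 and 2.78 against 117 and 141 CPM (5.41, SE 0.20).

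Interferon-stimulated genes had one of the highest list medians. They encode proteins that restrict viruses or sense their nucleic acids, and their promoters often carry the interferon-stimulated response element, which is bound by transcription factors that interferon activates. Of 42 tested genes, 22 were higher (52.4%, against 23.2% of all tested genes) and 3 lower, and 20 of the former were DEGs. The median of 1.77 was 0.69 without ρ0 replicate 1 and 2.25 without ρ0 replicate 2, so its size depended on which library was used. The summed level of the list was 1666 and 1677 CPM in parental cells and 4972 and 2021 CPM in ρ0 cells. What part the difference between the ρ0 libraries has in these values was not tested.

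To show the sequence that these genes share, the promoters of RefSeq on GRCh38.p14, 250 bases before to 50 bases after the start, were searched on both strands for TTTC, any 2 bases and TTTC, which reads GAAA, any 2 bases and GAAA on the other strand. Matches that overlap each other were counted once per promoter. A match was found in 996 of 27305 promoters (3.65%) and in 319 of the 11011 tested genes with a promoter in the table (2.9%). Of the 32 interferon-stimulated genes with a promoter in the table, 21 had a match (65.6%). Among the members that were higher in ρ0 cells it was 12 of 18 (66.7%) and among the other members 9 of 14 (64.3%). For the 6 genes with the largest log2 fold change whose match and 10 flanking bases on each side lay wholly before the start, the match farthest from the start is printed 5′ to 3′ on the strand of the gene, with the match in capitals.
BST2 (chr19:17405741-17405770, minus strand): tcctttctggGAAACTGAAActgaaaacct
IFI27 (chr14:94110618-94110647, plus strand): atgtctgcagTTTCGGTTTCctggaaaatg
IFIT3 (chr10:89327831-89327860, plus strand): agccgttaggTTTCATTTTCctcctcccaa
IFIT1 (chr10:89392497-89392526, plus strand): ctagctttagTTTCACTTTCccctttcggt
IFIH1 (chr2:162318824-162318853, minus strand): gagaattcgcTTTCCTTTTCtgtttcccgc
SAMD9 (chr7:93118096-93118125, minus strand): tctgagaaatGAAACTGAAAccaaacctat

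Members of the interferon list differed in size of effect, and not all of those named here have a match printed above. BST2, the virus-tethering protein tetherin, went from 0.250 and 0.181 CPM to 69.7 and 28.2 CPM, a log2 fold change of 7.79 (SE 0.65), and IFI27 from 0.281 and 0.361 to 68.2 and 36.8 CPM (7.34, SE 0.46). IFIT3, which binds viral RNA together with IFIT1, went from 21.1 and 22.9 to 560 and 114 CPM (3.94, SE 0.76). IFIH1, the RNA sensor MDA5, went from 6.40 and 6.94 to 119 and 34.3 CPM (3.53, SE 0.61). In each of these genes both ρ0 libraries lay above both parental libraries, as in every DEG that was higher, and replicate 1 lay above replicate 2. Without ρ0 replicate 1 the log2 fold changes of IFIT1, IFIT3 and IFIH1 were 1.504, 2.37 and 2.36. RSAD2, the antiviral enzyme viperin, was at 0.281 and 0.181 against 73.7 and 11.4 CPM, and its log2 fold change of 7.48 was 5.57 without ρ0 replicate 1. MX1 was at 1.03 and 1.37 against 45.9 and 23.9 CPM (4.86, SE 0.42), and the ubiquitin-like modifier ISG15 at 33.3 and 32.9 against 431 and 112 CPM (3.04, and 1.76 without ρ0 replicate 1). IRF1, an interferon-induced transcription factor, was even between the ρ0 libraries, at 12.1 and 12.6 against 122 and 97.9 CPM (3.16, SE 0.17). Not all members were higher, since OAS1 was at 14.98 and 16.8 against 24.7 and 4.17 CPM, with the parental values between the ρ0 values. IFITM2 and IFITM3, which block viral entry, and IFI16, a DNA sensor, were lower at -2.59, -0.81 and -1.08.

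**Figure D5:**
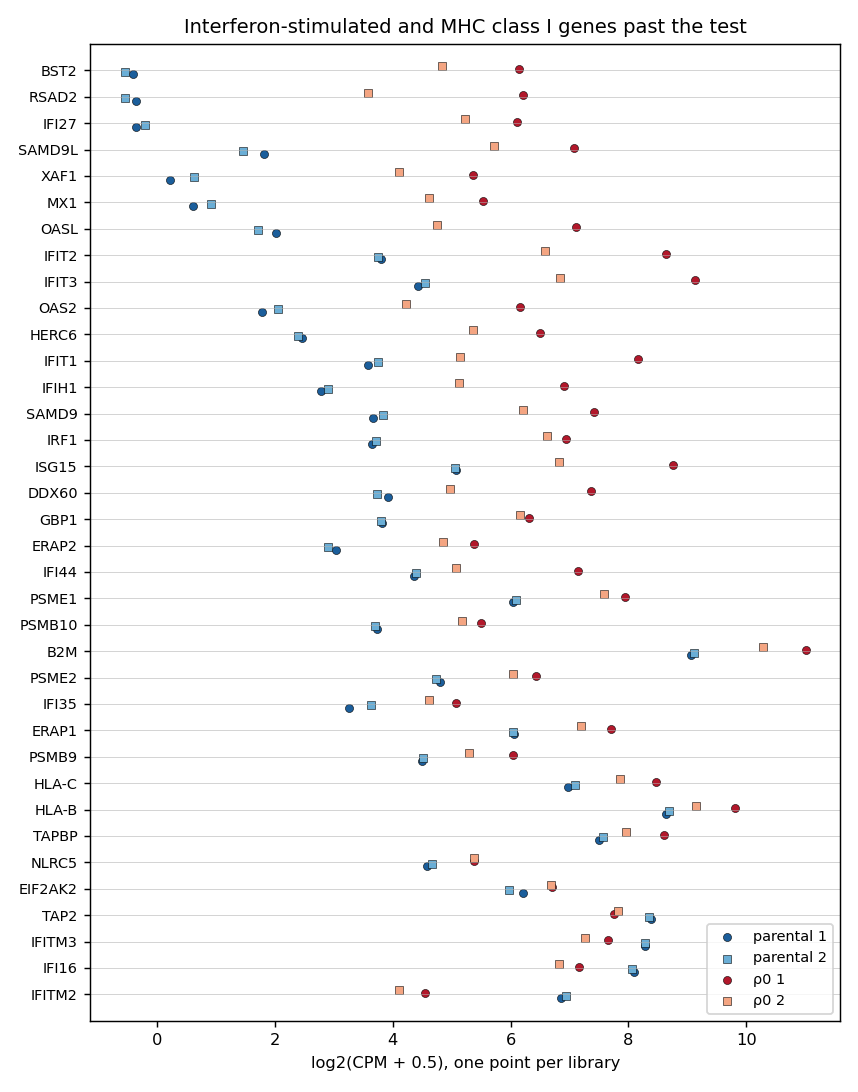
Each row is one of 36 genes of the interferon and MHC class I lists with an adjusted p under 0.05, and each point is 1 library at its log2(CPM + 0.5). The ρ0 replicate 1 point lies to the right of the replicate 2 point for most genes, as for RSAD2 at 73.7 and 11.4 CPM, and the parental points lie close together.

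Genes of MHC class I presentation, which display peptides to cytotoxic T cells, were higher as well. Of 17 tested genes, 12 were higher (70.6%, against 23.2%) and 1 lower, 9 were DEGs, and the median was 1.17 (0.81 and 1.46 without either ρ0 library). B2M, the invariant light chain, went from 532 and 554 CPM to 2079 and 1243 CPM (log2 fold change 1.61, SE 0.26). HLA-C was at 125 and 136 against 354 and 232 CPM (1.17). The HLA genes are alike and polymorphic, and how the counting assigned their reads is not given in the sources used here. The proteasome activator subunit PSME1 (1.72) and the peptide-trimming enzyme ERAP2 (2.24) were higher. TAP1, a peptide transporter of the same pathway, was at 97.1 and 101 against 146 and 100.1 CPM and did not pass the test, and its partner TAP2 was lower at -0.58.

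The inflammatory cytokines and NF-kB targets were lower more often than higher, 13 against 8 of 31, with a median of -0.60 (-0.67 and -0.70 without either ρ0 library). The shares were 41.9% lower and 25.8% higher, against 25.1% and 23.2% of all tested genes. The share that was higher was thus near that of all tested genes. CCL2, a chemokine for monocytes, had 20243 and 19799 counts in parental cells and 5 and 1 in ρ0 cells, 632 and 715 against 0.181 and 0.0336 CPM, a log2 fold change of -12.59 (SE 0.39). PTGS2, the inducible cyclooxygenase, went from 170 and 159 CPM to 0.290 and 0.706 CPM (-8.34, SE 0.34). IL1B went from 458 and 491 to 5.32 and 5.41 CPM (-6.47, SE 0.16) and its relative IL1A from 77.5 and 82.0 to 4.34 and 3.16 CPM (-4.41). The neutrophil chemokines CXCL1, CXCL2, CXCL3, CXCL5 and CXCL8 were all lower, CXCL8 at 457 and 474 against 25.3 and 17.4 CPM. CCL2 and PTGS2 were thus abundant in the parental line and under 1 CPM in both ρ0 libraries. Other members were higher, namely the adhesion molecule ICAM1 at 0.874 and 1.12 against 116 and 88.7 CPM (6.68, SE 0.25), the growth factor CSF1 at 151 and 159 against 1142 and 736 CPM (2.60, SE 0.24), and the chemokines CCL5, with 1 and 1 against 97 and 44 counts, and CXCL11. IL6 was higher by less than the DEG threshold (0.91).

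Immediate early and AP-1 genes were lower for 12 of 25 members and higher for 4, with a median of -0.87. The shares were 48.0% lower and 16% higher, against 25.1% and 23.2% of all tested genes. MYC, a driver of growth and ribosome synthesis, went from 612 and 613 CPM to 138 and 195 CPM (log2 fold change -1.88, SE 0.20). FOS was at 5.15 and 5.09 against 1.52 and 2.15 CPM, and the phosphatases DUSP1, DUSP4, DUSP5 and DUSP6, which dampen MAP kinase signalling, had log2 fold changes between -1.28 and -1.004. KLF4 was the highest member at 24.2 and 24.7 against 122 and 150 CPM (2.48, SE 0.16). Of 20 TGF-beta, ID and YAP genes, 9 were higher and 4 lower, and the median of 0.27 was 0.41 without ρ0 replicate 1 and 0.17 without ρ0 replicate 2. TGFBI, a matrix protein induced by TGF-beta, went from 20.7 and 21.1 to 260 and 226 CPM (3.54, SE 0.15) and the ligand BMP4 from 29.1 and 30.4 to 326 and 224 CPM (3.21, SE 0.22), whereas CTGF, a target of YAP, went from 847 and 909 to 153 and 159 CPM (-2.50, SE 0.14). Members of this list therefore differed in opposite directions.

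Epithelial and luminal markers formed the list with the highest share of DEGs among the 37 lists, 77.8% against 29.9% of all tested genes. Of the 32 members listed, ESRP1, GRHL2, OVOL1, ESR1 and PGR had at most 6 counts in any of the 4 libraries and were not tested. Members silent in one line, such as CDH1, passed the filter through the other line alone. The share of DEGs therefore holds for the tested members only. Of 27 tested genes, 18 were higher (66.7%) and 4 lower, 17 and 4 of which were DEGs, and the median was 1.88 (1.74 and 1.70 without either ρ0 library). KRT7, a keratin of simple epithelia, went from 3.50 and 3.14 CPM to 724 and 1290 CPM (log2 fold change 8.24, SE 0.39). CDH1, the adhesion molecule E-cadherin, had 2 and 0 counts against 457 and 440, a ratio of 467 (129 to 3859), and EPCAM 14 and 15 against 684 and 697 counts (5.62, SE 0.24). The ρ0 libraries thus counted epithelial adhesion genes that the parental libraries barely did. The claudins CLDN3, CLDN4 and CLDN7 of tight junctions were higher, and so was the epithelial transcription factor ELF3, at 0.718 and 0.795 against 36.6 and 31.4 CPM (5.49, SE 0.22). The luminal keratins KRT8, KRT18 and KRT19 had log2 fold changes of 1.66, 1.56 and 1.65. Other luminal regulators were lower. FOXA1 had 245 and 212 counts against 1 and 1, and ERBB3 was lower at -2.54. GATA3 was higher at 1.88 and ERBB2 at 0.57.

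Mesenchymal markers were also higher more often than lower. Of 21 tested genes, 10 were higher (47.6%, against 23.2% of all tested genes) and 4 lower (19%, against 25.1%). The median was 0.86 (0.26 and 0.76 without either ρ0 library). S100A4 went from 28.0 and 32.7 CPM to 1064 and 614 CPM (log2 fold change 4.79, SE 0.32), the transcription factor SNAI2 from 20.5 and 19.7 to 90.5 and 83.9 CPM (2.12, SE 0.14) and CAV1, the coat protein of caveolae, from 295 and 310 to 1046 and 987 CPM (1.75, SE 0.14). VIM had a log2 fold change of 0.92 (SE 0.17). The matrix protein tenascin C (TNC) had the lowest value, from 504 and 479 to 31.6 and 12.4 CPM (-4.48, SE 0.47), and ZEB1, a repressor of epithelial genes, was lower at -0.46. Of 11 tested basal and squamous markers, 5 were higher and 1 lower, with TP63 at 3 and 2 against 66 and 40 counts.

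Genes that mark other cell types moved in both directions. None of the 3 tested melanocyte markers passed the test, and the summed level of the 9 listed members was between 46.5 and 55.4 CPM in the 4 libraries. MITF held most of that sum, at 47.1 and 45.2 against 43.1 and 53.15 CPM. Of 5 tested blood cell markers, CD14 (6 and 4 against 92 and 77 counts) and LYZ (4 and 2 against 55 and 15 counts) were higher, while the defining gene CD3E was at 0 and PTPRC, the common leukocyte antigen, had between 7 and 13 counts. Of 10 endothelial and neural markers, 3 were higher and 5 lower. The neuronal tubulin TUBB3 was higher, at 32.7 and 34.0 against 63.2 and 106 CPM (log2 fold change 1.34, SE 0.26), and the neural intermediate filament NES, with a mean of 83.9 against 42.2 CPM and chosen after its value was seen, was lower at -0.99. CDH5 of endothelium had 58 and 64 counts against 1 and 1, and the stem cell factor SOX2 31 and 34 against 0 and 0.

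Many genes of the extracellular matrix and its receptors differed between the lines. Of 24 tested collagens and matrix genes, 13 were higher (54.2%) and 5 lower, and the median was 1.38 (1.02 and 1.33 without either ρ0 library), but 0.43 over the members with at least 10 counts in every library. Besides COL4A5, COL7A1, the anchoring fibril collagen, went from 9.27 and 10.7 CPM to 230 and 135 CPM (log2 fold change 4.20, SE 0.30) and COL6A3 from 3.15 and 3.11 to 32.9 and 12.9 CPM (2.87). Lumican (LUM), a proteoglycan, had 2 and 1 counts against 160 and 100. The median of the 25 integrins and laminins was -0.07, and it was -0.24 without ρ0 replicate 1 and 0.34 without ρ0 replicate 2. Of these genes 10 were higher and 5 lower, with integrin ITGB3 at 1.34 and 1.34 against 23.1 and 20.4 CPM (4.02, SE 0.21) and laminin LAMA1 at 34.7 and 35.5 against 0.471 and 1.28 CPM (-5.31, SE 0.41). All of the integrins and laminins that passed the test were DEGs. Over the whole tested set, 7216 genes passed the test and 4478 were DEGs. The share of DEGs was 60% for integrins and laminins, whereas it was 29.9% over the whole tested set.

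Proteases and their inhibitors differed in opposite directions, 15 of 34 higher and 10 lower, and the median of 0.28 was 0.07 without ρ0 replicate 1 and 0.49 without ρ0 replicate 2. Among the secreted matrix metalloproteinases, besides MMP1, MMP3 had 610 and 517 counts against 0 and 0, at least 361-fold lower, and the gelatinase MMP9 went from 22.6 and 24.5 CPM to 0.869 and 0.101 CPM (log2 fold change -5.62, SE 0.66). MMP14, a membrane-bound metalloproteinase, was at 519 and 501 against 758 and 348 CPM, with the parental values between the ρ0 values. Plasminogen activator PLAU went from 882 and 919 to 371 and 231 CPM (-1.58, SE 0.25). The lysosomal protease CTSD was higher, from 323 and 339 to 3860 and 3162 CPM (3.41, SE 0.18), and so were the inhibitors TIMP1 (2.36), TIMP3 (2.75) and CST6 (5.34). As for every DEG, the values of the lines did not overlap for these called genes.

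Among DNA replication genes the share that was higher was near that of all tested genes. DEGs were rarer here, at 15%, than in the whole tested set, at 29.9%. Of 40 tested genes, 11 were higher (27.5%, against 23.2% of all tested genes) and none was lower, and the median of 0.36 was 0.66 without ρ0 replicate 1 and 0.07 without ρ0 replicate 2. CCNE2, a cyclin of S phase entry, was at 11.5 and 10.7 against 26.5 and 65.6 CPM (log2 fold change 2.06, SE 0.43) and the helicase subunit MCM6 at 63.2 and 61.8 against 114 and 208 CPM (1.36, SE 0.29). Without ρ0 replicate 2 these log2 fold changes were 1.27 for CCNE2 and 0.88 for MCM6. Mitosis genes showed no common direction, with 5 of 37 higher, 5 lower and a median of -0.02 that was -0.30 without ρ0 replicate 1 and 0.18 without ρ0 replicate 2. The ρ0 libraries thus differed in both sets of cell cycle genes, replicate 2 being higher for replication and replicate 1 for mitosis.

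Among cyclins, CDK inhibitors and p53 targets, 6 of 23 were higher and 7 lower. Cyclin D2 (CCND2) had the largest difference, from 107 and 107 CPM to 1.38 and 1.38 CPM (log2 fold change -6.27, SE 0.17), and the CDK inhibitor CDKN1C went from 24.2 and 24.8 to 7.02 and 5.48 CPM (-1.97, SE 0.20). Cyclin D1 (CCND1) was higher at 571 and 552 against 827 and 1431 CPM, with a log2 fold change of 1.01 that was 0.58 without ρ0 replicate 2. The p53 target CDKN1A did not pass the test at 0.31. Of 77 cytosolic ribosomal proteins, 19 were higher and 9 lower with a median of 0.11 that was 0.235 without ρ0 replicate 1 and -0.02 without ρ0 replicate 2, and the 4 DEGs included RPL39 (higher) and RPL4 and RPL41 (lower). Ribosomal protein genes have many processed pseudogenes with which reads may have been shared.

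The same line difference was read in the arginine-starved libraries, which share no sample with the control comparison. Of the 1966 genes called higher in full medium, 1769 (90%) were also higher in both starved ρ0 libraries than in both starved parental libraries, and 99 were lower in that way. Among all tested genes, 44.8% were higher in that way. Of the 2512 genes called lower, 1967 (78.3%) were lower again and 267 were higher, against 46.1% of all tested genes that were lower in that way. On the scale of log2(CPM + 0.5), the difference between the starved lines was 6.49 for RHOD, 6.95 for COL4A5, -8.44 for MMP1 and -6.78 for CCL2, each in the same direction as in full medium.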

How the data were processed

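RNA-seq was done on 8 libraries, of which the 4 untreated ones carry this comparison. The values deposited by the authors are whole-number read counts per gene symbol, with no normalization. The submitters' notes name Bowtie, Partek and hg19 without versions or roles, and the gene annotation and counting rule are not given in the sources used here, so reads of paralogs may be divided between them. Every column of the deposited table was mapped to a sample by its title.

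Counts of the 4 control libraries (26672463 to 30986041 each) were filtered with filterByExpr, scaled by TMM and tested with edgeR 4.0.16 (R 4.3.3) by its quasi-likelihood test with 1 mean per line and Benjamini-Hochberg adjustment, on 2 residual degrees of freedom. The study's thresholds, an adjusted p under 0.05 and a log2 fold change beyond 1, define DEGs. CPM are TMM-scaled, and standard errors were obtained from each log2 fold change and its F statistic. Where both libraries of a line had 3 counts or fewer, a fold was bounded against 3 counts over the line or given as a ratio with an exact 95% interval, which covers counting error only. DESeq2 1.42.0, limma 3.58.1, other scalings and filters, all 8 libraries, a replicate block and leaving out each library were tried. The libraries share replicate numbers, but the labels name no shared source. On simulated counts for this comparison (14952 genes, 14669 tested), 74% of 100 genes changed by 1.5 log2 units and 100% of 100 changed by 3 were called. The simulation gave both lines the same spread and changed only 200 genes. In the real data the ρ0 pair varied more (24.9% against 5.18%) and 4478 genes were called, so these rates may not hold there.

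Genes were named by rule: the 10 largest rises and falls of DEGs averaging 10 CPM or more and without overlap between the lines, the 6 most abundant DEGs per direction, up to 4 rises and 4 falls past the test per list, a fixed set (ASS1, ASL, ATF4, ASNS, XBP1, TFAM, DHODH, VIM, CDH1, EPCAM, ESR1, ERBB2, CDKN2A, CDKN2B and MTAP), line and cell type markers, the 6 genes per direction that differed most between the ρ0 libraries, and the 3 most extreme runs of 15 neighbouring genes per direction. Other list members were added as examples after their values were seen, namely CDKN1A, CLDN4, CLDN7, COL6A3, CS, CTPS1, CXCL1, CXCL2, CXCL3, CXCL8, DUSP1, DUSP4, DUSP5, DUSP6, ELF3, FASN, FTH1, FTL, GAPDH, GCLM, HLA-C, HMGCS1, HMOX1, HSPA5, IFIH1, IFIT3, IL1A, IL6, IRF1, ISG15, LDHA, MMP14, MMP9, MPC1, MX1, NFE2L2, OAS1, PSAT1, PSPH, SLC3A2, SLC7A11, TAP1 and TIMP1. The list member NES and the genes CIITA and CD74 were also chosen after their values were seen. The members of the comparison and all gene lists were chosen with earlier results of these data known. Some genes that these rules name are not reported here, and they stay in the tests and in the counts of each list. Promoter sequences and gene order came from RefSeq on GRCh38.p14.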

Additional observations from a re-analysis of the deposited data

Results flagged for a closer look

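Of the DEGs named, 5 were lower in both ρ0 libraries in full medium and higher in both ρ0 libraries by more than 1 on the log2(CPM + 0.5) scale when both lines were starved. The difference between the media was not tested for any of them. NDRG1, a hypoxia and stress target, was 1.98 higher in starved ρ0 cells, and its log2 fold change in full medium was -1.58. PLAU was 2.67 higher in starved ρ0 cells and MT1X 1.49 higher, against -1.58 and -1.66 in full medium. CXCL1 was 1.09 higher and DUSP4 1.44 higher, against -3.61 and -1.004 in full medium. CXCL1 and DUSP4 are among the genes added after their values were seen.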

How the results depend on the processing

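Counts of DEGs higher in ρ0 cells stayed within 1.5 times of 1966 in every alternative. Counts of DEGs lower in ρ0 cells stayed within 1.5 times of 2512 except under the filter of at least 10 counts in every library. That filter removes genes near 0 in one line and left 1426 higher and 1670 lower. DESeq2 called 1872 and 2315, limma-voom with group weights 1935 and 2514, and all 8 libraries in one fit 2074 and 2644. With the replicate number as a block the counts were 1989 and 2635. Same-numbered libraries did not deviate together (correlation 0.066 over 2 pairs), so the numbers do not show pairing. Leaving out 1 library in turn gave 1657 to 2260 DEGs higher and 2142 to 2940 lower. At any fold change the range was 1749 to 5620 higher and 2304 to 5922 lower, the high ends without ρ0 replicate 1, where the spread comes from the parental pair alone and the lone ρ0 library is assumed to vary like it. An adjusted p under 0.01 left 1922 higher and 2297 lower at any fold. Among the larger list medians, the filter of at least 10 counts in every library took collagens and matrix from 1.38 to 0.43, proteases from 0.28 to 0.71, basal markers from 0.86 to 0.48, cytokines from -0.60 to -0.38, AP-1 genes from -0.87 to -0.545, metallothioneins from -0.32 to -0.66, melanocyte markers from -0.76 to -0.37 and endothelial and neural markers from -0.74 to 0.16, and it took integrins and laminins from -0.07 to 0.58. Over the alternatives that left no library out, the lowest median was 1.24 for interferon-stimulated genes, against 1.77 in the main analysis. For NRF2 targets and antioxidant enzymes it was 0.616, against 0.864. Of 340 named and tested genes, 318 passed the test. Without parental replicate 1 or 2, 94 and 93 of them no longer did, and in the other alternatives between 0 and 11. The genes whose sign turned with a call were not called in the main analysis. Without ρ0 replicate 1 and without ρ0 replicate 2, respectively, the log2 fold change was -2.56 and 0.74 for MYH15, 1.11 and -1.39 for FAM69B, 1.18 and -0.83 for EGR1, -1.93 and 0.66 for OAS1, and -0.56 and 0.59 for MMP14. The cause was not tested. With 2 libraries per line and an uneven ρ0 pair, small differences are beyond what the counts can show.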

Other observations

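Tested genes were also read in the order of RefSeq on GRCh38.p14, to which 14758 of 14952 were matched (98.7%), by the running median of the log2 fold change over 15 neighbours. The central 98% of these medians lay between -1.32 and 1.24. The lowest run, from KRBA2 to MYH2, had a median of -4.75, and 12 of its 15 genes had a negative log2 fold change. It holds the myosin heavy chain cluster and NTN1, and MYH8 had 73 and 70 counts in parental cells and 0 and 0 in ρ0 cells. The next, from AGPAT1 to HLA-DQB2, had a median of -3.45, and 11 of its 15 genes were DEGs, all lower. It covers the MHC class II genes, which present peptides to helper T cells. HLA-DRA went from 187 and 196 CPM to 15.3 and 5.61 CPM (log2 fold change -4.20), and HLA-DQB1 had 161 and 119 counts against 0 and 0, at least 89.2-fold lower. CIITA, the master regulator of class II genes, had a log2 fold change of -0.48 and the class II chaperone CD74 one of 0.48, and neither passed the test (both genes were chosen after their values were seen). The run from NDUFA2 to PCDHB5 had a median of -3.44 and holds protocadherin alpha and beta genes, and 8 of its 15 genes had a negative log2 fold change and 7 a positive one.

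The highest runs lay at PRR19 to PSG9 (median 2.86, with the pregnancy-specific glycoproteins), at ZNF85 to ZNF681 (1.83) and at FLI1 to C11orf44 (1.79). All 15 genes from ZNF85 to ZNF681, a cluster of KRAB zinc finger genes with 1 noncoding RNA, were DEGs and higher in ρ0 cells. The HLA, protocadherin, PSG and zinc finger genes have close paralogs, among which reads may have been divided.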
